A study of Bos taurus with 19 samples.

Results

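Theca interna of small atretic follicles was compared directly with theca interna of large healthy follicles, so that the tissue of regressing follicles was set against that of follicles that had grown. All theca interna samples with log2 signals were taken by their labelled group, which gave 9 arrays (5 small atretic, 4 large healthy) of the 19 in the series. Probe sets with a log2 signal above 3 on at least 50% of the arrays of either group were kept, and the array's own control probe sets were left out. This left 15326 of 24127 probe sets, which include 7312 genes with 1 assigned symbol.

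The tissue came from follicles of non-pregnant Bos taurus heifers collected at an abattoir. Granulosa cells had been scraped off and the theca interna peeled away before RNA was extracted. Small follicles, atretic or healthy, measured 3 to 5 mm across and large healthy ones over 9 mm. Health and atresia were judged by histology of the membrana granulosa. The other 10 arrays held theca of small healthy follicles, 5 whose basal granulosa cells were rounded and 5 whose basal cells were columnar, and served as background. No genotype, transgene or drug treatment was involved. The study counts its healthy samples as follicles, and the atretic ones are numbered as replicates in the labels. No source says whether any animal gave more than 1 array, so the p-values cover the spread between these arrays.

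Preparation differed between the groups. According to the labels, large healthy RNA was extracted with Trizol and RNeasy columns and 2 to 5 µg was labelled, whereas atretic RNA was extracted with an RNAqueous Micro kit and 250 ng was labelled. The study's methods describe 1 protocol and healthy follicles only, and give a smaller labelled RNA amount than the labels do. As far as the labels hold, follicle state, follicle size, RNA kit and RNA amount cannot be told apart in this contrast.

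The theca interna is the vascular, steroid-producing layer outside the follicular basal lamina. Its steroidogenic cells respond to LH and make androgens, which granulosa cells convert to oestrogen. It also holds fibroblasts, capillaries, pericytes and immune cells. Atresia is the loss of a follicle by degeneration, during which granulosa cells die and phagocytes are known to enter. Because whole tissue was measured, fewer cells of a type and less RNA per cell cannot be told apart.

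The identity of the tissue was checked first. INSL3, a peptide hormone of thecal steroidogenic cells, gave log2 signals of 12.0, 12.0, 12.4, 11.8 and 10.0 in atretic theca and 11.9, 12.1, 12.5 and 12.4 in large healthy theca. All 9 arrays therefore carried a strong thecal signal, with atretic replicate 5 lowest. The FSH receptor FSHR, a granulosa cell gene, was at 1.4 to 2.9 in atretic and 1.7 to 2.4 in large healthy theca and did not pass the filter. Of the 9 granulosa cell markers tested, 7 passed the filter in both groups and 2, CYP19A1 among them, through the large healthy arrays only. INHBA reached 10.3 and CYP19A1 5.8 on large healthy replicate 2, whereas CYP19A1 was under the detection limit on every atretic array. The 9 averaged 5.50 to 7.97 per array over both groups.

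Array-wide measures overlapped between the groups except for 1 set of controls. Correlations between arrays over all tested probe sets had a median of 0.973 within atretic, 0.966 within large healthy and 0.962 between the groups. The first principal component held 37.1% of the variance and ran from -6.9 to 36.9 in atretic and from -41 to 2.3 in large healthy arrays, so that the groups overlapped on it. The poly-A controls, bacterial transcripts spiked into the RNA before labelling, averaged 4.88 ± 0.33 (SD, n = 5) in atretic and 6.02 ± 0.29 (SD, n = 4) in large healthy arrays (exact two-sided permutation p = 0.0159, the smallest that 126 splits allow, adjusted p = 0.0476 over 3 measures). The small healthy arrays lay beside the atretic ones, at 4.75 ± 0.32 in rounded and 4.61 ± 0.14 in columnar theca (SD, n = 5 each), although the labels give small healthy follicles the same RNA amount as large ones. Each of the large healthy arrays, at 5.78 to 6.43, was therefore above every array of the other 3 groups, which reached at most 5.28. Hybridization controls differed by 0.02 (exact permutation p = 0.857) and the 3′ minus 5′ signal of GAPDH and actin by -0.03 (exact permutation p = 0.905). The part of RNA preparation in the differences below was not tested.

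No probe set passed an adjusted p of 0.05 with a 2-fold difference in limma's model on the 9 arrays, in either direction (0% of 15326 both higher in atretic and higher in large healthy theca). The smallest adjusted p was 0.126, which 12 probe sets shared, among them SPTBN1, CAV1, MEG3, OIT3 and NPVF. Without adjustment, 2763 probe sets had a p under 0.05, 1491 higher in atretic and 1272 higher in large healthy theca. With the 2-fold limit added, 99 were higher in atretic theca (0.646%) and 153 were higher in large healthy theca (0.998%). Leaving out large healthy replicate 4 gave 9 calls higher in atretic and 50 higher in large healthy theca, leaving out large healthy replicate 1 gave 10 and 30, and leaving out atretic replicate 3 gave 2 and 0. The unadjusted 2-fold counts were 59 and 86 without large healthy replicate 2, 155 and 212 without large healthy replicate 1, and 149 and 202 without atretic replicate 3.

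When all 19 arrays were fitted together, so that the small healthy arrays added to the estimate of the spread, 22 probe sets were called higher in atretic theca (0.144%) and 21 higher in large healthy theca (0.137%). These calls rest on the spread being alike in the 4 groups. Of the 22, 7 passed the filter through the atretic arrays only, and of the 21, 5 through the large healthy arrays only. Such probe sets were low in the other group, and the sizes of their differences are uncertain. Both adjusted p-values, over all 15326 probe sets, are given below for the genes described. Genes with the largest differences and genes called with 19 arrays were picked after their values were seen.

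**Figure D1:**
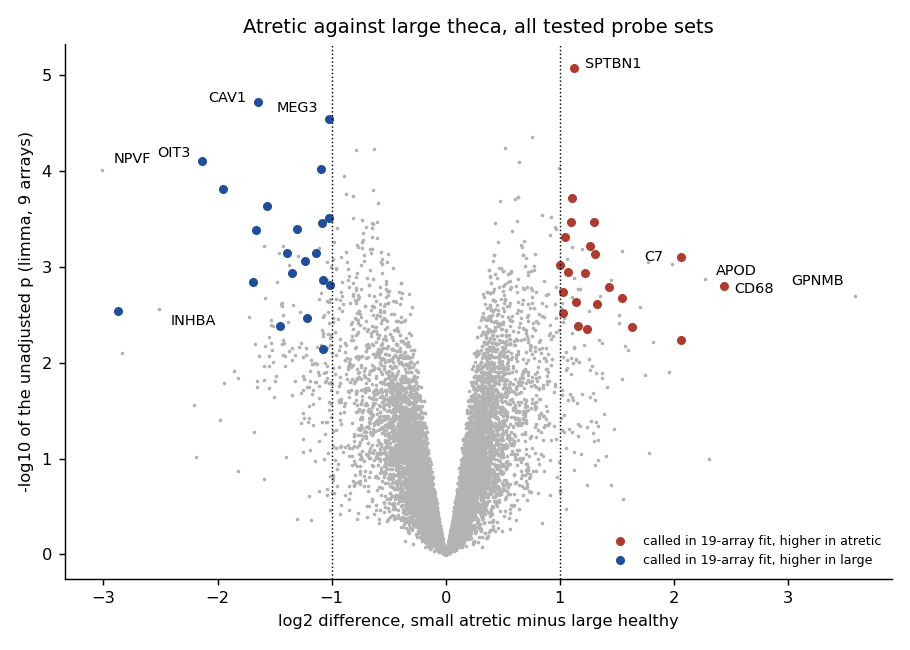
Log2 difference between small atretic and large healthy theca (x axis) against -log10 of the unadjusted limma p from 9 arrays (y axis) for the 15326 tested probe sets, 1 point each. Red and blue points are the 22 and 21 probe sets called when 19 arrays were fitted, and dotted lines mark a 2-fold difference; GPNMB lies farthest to the right and NPVF farthest to the left.

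GPNMB and CD68 had the largest differences of named genes higher in atretic theca. GPNMB, a transmembrane glycoprotein of phagocytes, gave log2 signals of 8.1, 6.7, 4.5, 7.3 and 8.2 in atretic and 3.4, 2.6, 2.0 and 5.5 in large healthy theca. Atretic replicates 1, 2, 4 and 5 lay above every large healthy array, and atretic replicate 3 lay below large healthy replicate 4. The difference was 3.58 ± 0.86 (SE; 12.0-fold; adjusted p = 0.141 with 9 arrays and 0.0552 with 19). Large healthy replicates 2 and 3 were under the detection limit of 3, so its size is uncertain. A second GPNMB probe set differed by 2.06 and was called with 19 arrays (adjusted p = 0.0472).

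CD68, a lysosomal glycoprotein used to mark macrophages, was at 7.4, 6.2, 4.8, 7.3 and 7.6 in atretic and 4.1, 3.8, 3.8 and 5.2 in large healthy theca. Again only atretic replicate 3 fell within the large healthy range. CD68 was 5.41-fold higher in atretic theca (log2 difference 2.44 ± 0.56 SE, adjusted p = 0.141 with 9 arrays and 0.0421 with 19).

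APOD, a lipid-binding lipocalin, was at 9.0, 8.3, 6.8, 7.8 and 9.2 in atretic and 6.6, 4.9, 5.8 and 6.5 in large healthy theca. C7, a terminal complement component, was at 10.1, 9.1, 7.8, 8.4 and 9.9 against 7.2, 6.9, 7.1 and 7.1. Neither gene overlapped between the groups, and the differences were 2.27 ± 0.51 for APOD and 1.99 ± 0.43 for C7 (SE; adjusted p = 0.141 and 0.138 with 9 arrays, 0.0565 for both with 19). APCDD1, an inhibitor of Wnt signaling, also did not overlap, with 5.7 to 6.5 in atretic and 3.6 to 5.5 in large healthy theca.

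Among the other genes with large differences, the iron-handling proteins CP (ceruloplasmin, 1.96) and LTF (lactoferrin, 1.54), the acid phosphatase ACP5 (1.54 and 1.32 by 2 probe sets) and the lectin LGALS3 (1.54) were higher in atretic theca. Both ACP5 probe sets were called with 19 arrays (adjusted p = 0.0421), as was 1 of 2 for the lysosomal protease CTSB (1.16, adjusted p = 0.0447).

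FAS, a death receptor, was at 4.0, 3.6, 3.2, 4.2 and 4.5 in atretic and 2.6, 2.8, 3.0 and 2.9 in large healthy theca. The groups did not overlap, but large healthy signals were at or under the detection limit of 3, so the size of the difference (1.07 ± 0.24 SE) is uncertain. FAS thus passed the filter through the atretic arrays only. It was called with 19 arrays (adjusted p = 0.0257; 0.138 with 9). The decoy receptor IL1R2 was called likewise (1.0, adjusted p = 0.0286), from 2.4 to 3.6 against 1.9 to 2.2. IL1R2 also passed the filter through the atretic arrays only, and its size is uncertain.

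SPTBN1, a spectrin of the membrane skeleton, had the smallest p of all probe sets (8.57e-06 by limma, unadjusted). Its signals of 3.1, 2.9, 3.2, 3.3 and 3.0 in atretic and 2.0, 2.3, 1.9 and 1.7 in large healthy theca did not overlap but straddled the detection limit. The difference was 1.12 ± 0.13 (SE; adjusted p = 0.126 with 9 arrays and 0.00197 with 19). No large healthy array was over the limit, so SPTBN1 passed the filter through the atretic arrays only and the size is uncertain. Small healthy arrays lay at 3.2 to 3.8, near the atretic ones.

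ASB5 (1.10), UBE2L6 (1.10), PLA1A (1.22), HFM1 (1.26), STARD10 (1.30), ASPA (1.43) and DUSP26 (1.03) completed the named genes called higher in atretic theca with 19 arrays. UBE2L6 conjugates the ubiquitin-like protein ISG15, PLA1A is a phospholipase and STARD10 transfers lipids. The first 6 did not overlap between the groups. Of the 22 calls on this side, 7 passed the filter through the atretic arrays only. The size is uncertain for any of these genes among those 7.

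**Figure D2:**
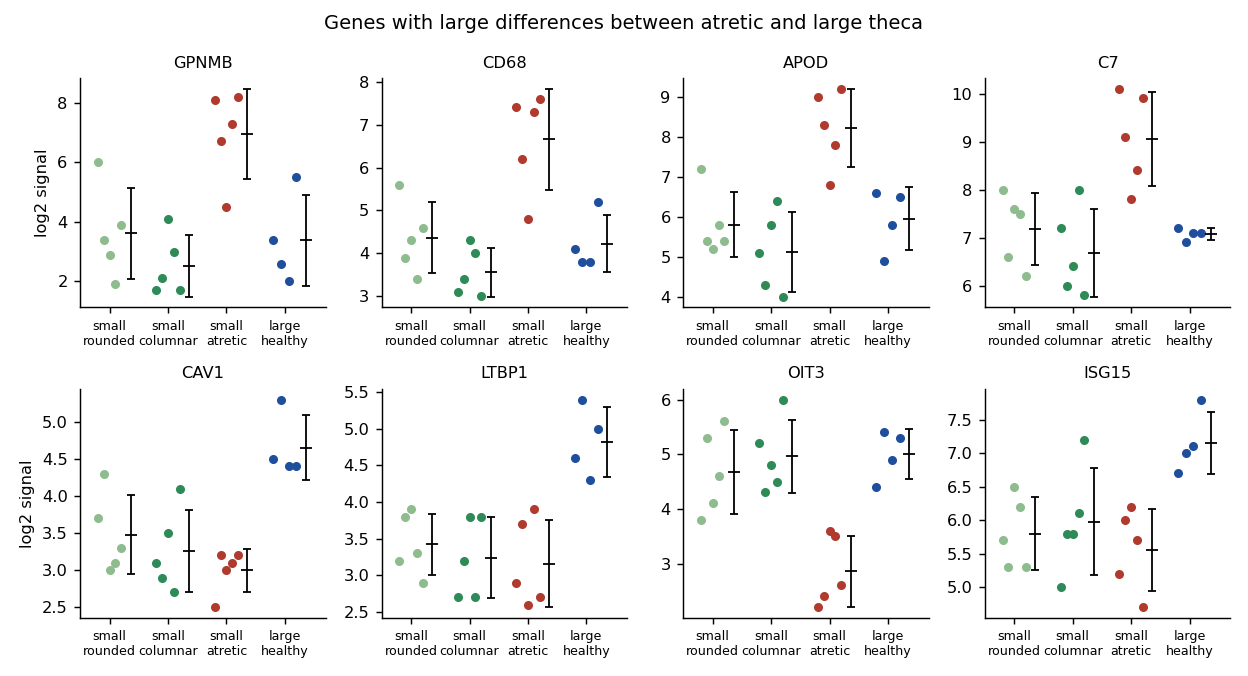
Log2 signal (y axes) of 8 genes on each of the 19 arrays by group (x axes); each point is 1 array in replicate order, and the bars beside the points are the mean and SD. GPNMB, CD68, APOD and C7 are higher in atretic than in large healthy theca, and CAV1, LTBP1, OIT3 and ISG15 are lower, OIT3 also against both small healthy groups.

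In the other direction, CAV1, the main protein of caveolae, was at 2.5, 3.2, 3.0, 3.1 and 3.2 in atretic and 4.5, 5.3, 4.4 and 4.4 in large healthy theca. Every large healthy array lay above every atretic array. The difference was -1.65 ± 0.22 (SE; adjusted p = 0.126 with 9 arrays and 0.0257 with 19), but atretic signals lay around the detection limit of 3, so its size is uncertain.

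LTBP1, which holds latent TGF-β in the matrix, was at 2.9, 3.7, 2.6, 3.9 and 2.7 in atretic and 4.6, 5.4, 4.3 and 5.0 in large healthy theca, again without overlap. It differed by -1.67 ± 0.32 (SE; adjusted p = 0.138 with 9 arrays and 0.0369 with 19). With 2 of 5 atretic arrays over the detection limit, it passed the filter through the large healthy arrays only, and the size is uncertain. The long noncoding RNA MEG3, at 6.3 to 6.7 against 7.2 to 7.8, and the nonmuscle myosin MYH10, at 4.4 to 5.0 against 5.5 to 6.3, were also separate (-1.02 for both, adjusted p = 0.0324 and 0.0369 with 19 arrays).

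OIT3 was at 2.2, 2.4, 3.6, 3.5 and 2.6 in atretic and 4.4, 5.4, 4.9 and 5.3 in large healthy theca. It differed by -2.14 ± 0.33 (SE; adjusted p = 0.126 with 9 arrays and 0.0324 with 19). It too had 2 of 5 atretic arrays over the detection limit and passed the filter through the large healthy arrays only, so the size is uncertain. Both small healthy groups averaged 4.68 and 4.96, close to large healthy theca, and OIT3 was called lower in atretic than in rounded theca (-1.82, adjusted p = 0.0205). The size of that difference is uncertain for the same reason.

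NPVF, the precursor of RFamide peptides that restrain gonadotropin release, was at 1.6 to 2.1 in atretic and 3.1, 5.9, 5.6 and 4.8 in large healthy theca. All atretic values were under the detection limit, so that NPVF passed the filter through the large healthy arrays only and no size is given for its difference. One columnar array reached 6.6, so a high NPVF signal was not limited to large follicles.

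Further genes called higher in large healthy theca with 19 arrays were the peptidase ANPEP (-1.30), the guidance ligand SLIT2 (-1.35), PDE4DIP (-1.14), the dUTPase DUT (-1.08 by each of 2 probe sets), CYB5R3 (-1.07) and LOC100298356 (-1.57 and -1.39 by 2 probe sets). Other probe sets called on this side have no symbol in the annotation. Of the 21 calls higher in large healthy theca, 5 passed the filter through the large healthy arrays only. The size is uncertain for any of these genes among those 5.

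Gene lists for the cell types and pathways of the follicle were then read, with 1 probe set per gene, the one with the highest mean signal. Over all 7312 genes, 8.88% were higher in atretic and 8.88% higher in large healthy theca at an unadjusted limma p under 0.05, called here the unadjusted threshold. The median difference was 0.005. In 1.96% of genes every atretic array lay above every large healthy array, and in 1.35% every one lay below.

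**Figure D3:**
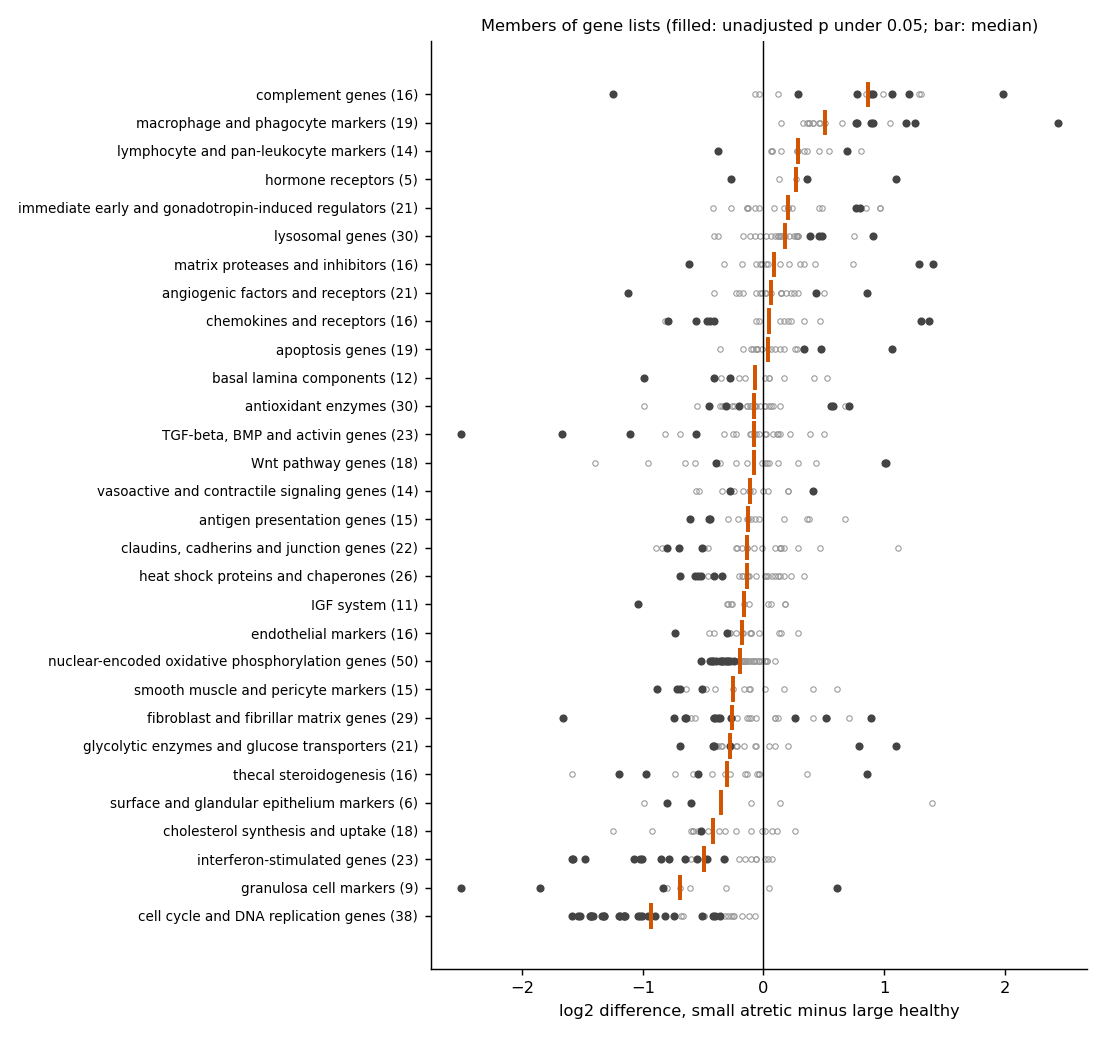
Log2 difference between small atretic and large healthy theca (x axis) for each tested gene of the lists with 5 or more tested genes, the number tested in brackets. Filled points passed the unadjusted threshold of 0.05, open points did not, and orange bars are list medians, from 0.87 for complement genes to -0.93 for cell cycle genes.

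Macrophage and phagocyte markers were higher in atretic theca in mean for 19 of 19 tested genes, with a median difference of 0.51, and 7 passed the unadjusted threshold. These were CD68 (2.44), the signaling adaptor TYROBP (1.26), the endotoxin co-receptor CD14 (1.18), the complement subunits C1QB (0.91), C1QC (0.89) and C1QA (0.78), and the costimulator CD86 (0.77). TYROBP was at 6.1, 5.1, 4.5, 6.2 and 6.4 in atretic and 5.0, 4.0, 3.9 and 4.7 in large healthy theca. None was separate between the groups. The list mean was 5.82, 5.03, 4.79, 6.02 and 6.06 on atretic and 5.17, 4.64, 4.49 and 4.98 on large healthy arrays, so that atretic replicates 2 and 3 lay within the large healthy range. The number past the threshold was 14 without atretic replicate 3, 11 without atretic replicate 2 and 4 without large healthy replicate 3.

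Complement genes had the highest list median, 0.87, with 7 of 16 higher in atretic theca past the unadjusted threshold. C4A, the source of the C4 fragment of the classical pathway, was at 11.1, 11.1, 9.4, 10.2 and 10.5 in atretic and 9.1, 8.7, 9.5 and 9.7 in large healthy theca (1.21, adjusted p = 0.164). The C1 inhibitor SERPING1 was higher by 1.07 and C7 by 1.99. CD55, which protects host cells by dissociating complement convertases, was the 1 gene past the threshold on the other side (-1.25, adjusted p = 0.203). The C1Q genes are in both this list and the macrophage list. The count was 11 without large healthy replicate 1 or atretic replicate 3 and 4 without large healthy replicate 2 or 3.

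Lysosomal genes were higher in atretic theca in mean for 24 of 30 genes by a median of 0.17, and 4 passed the unadjusted threshold: CTSB (0.91), the sphingolipid activator precursor PSAP (0.49), the cholesterol carrier NPC2 (0.46) and CTSV (0.39). NPC2 did not overlap between the groups. The count was 7 without atretic replicate 2 or 3.

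Lymphocyte and pan-leukocyte markers had a median of 0.29 with 1 of 14 past the threshold in each direction, NKG7 (0.69) higher and CD247 (-0.38) lower in atretic theca. The count higher in atretic theca was 8 without large healthy replicate 1 and 3 without atretic replicate 3, and 0 without any 1 of several other arrays. Of 16 chemokines and receptors, GRO1 (1.37) and CXCR4 (1.31) were higher in atretic theca, and ACKR3 (-0.79), CXCL10, CXCL11, CCL4 and CCL8 were lower. The count of lower ones was 2 without large healthy replicate 3.

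Cell cycle and DNA replication genes had lower means in atretic theca for 38 of 38 genes, with a median of -0.93, and 26 passed the unadjusted threshold. CCNB1, the cyclin of mitotic entry, was at 3.0, 2.3, 4.0, 3.9 and 2.7 in atretic and 5.0, 5.8, 5.0 and 3.3 in large healthy theca (-1.59, adjusted p = 0.176), and it was 1 of 3 listed genes that passed the filter through the large healthy arrays only. ASPM, a spindle pole protein, was lower by 1.44 on the log2 scale and the mitotic kinase AURKB by 0.96 (adjusted p = 0.141 for both). Large healthy replicate 4 lay within the atretic range for CCNB1 and ASPM.

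The cell cycle list mean was 4.90, 4.64, 5.32, 5.26 and 4.76 on atretic and 6.01, 6.49, 5.92 and 4.91 on large healthy arrays. Rounded theca averaged 6.52 ± 0.77 and columnar theca 6.84 ± 0.67 (SD, n = 5 each), above both. Of the 38 genes, 23 were called lower in atretic than in rounded theca and 0 lower in large healthy than in columnar theca, where the median difference was -1.11. These counts turned on single arrays. The 23 became 0 without atretic replicate 1 or 5 or rounded replicate 2 or 5, and 15 without atretic replicate 2. In large healthy against columnar theca, 20 were called lower without columnar replicate 4, whose list mean of 5.68 was below the 6.89 to 7.33 of the other columnar arrays, and 28 with array weights. The number past the unadjusted threshold in the direct contrast was 33 without large healthy replicate 4 and 15 without large healthy replicate 2. Replicate 2 had the highest mean of cell cycle genes and of granulosa cell markers among large healthy arrays.

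Interferon-stimulated genes were lower in atretic than in large healthy theca, with a median of -0.49 over 23 genes and 12 past the unadjusted threshold, none in the other direction. Of the 23, 6 did not overlap between the groups, and 2 passed the filter through the large healthy arrays only. ISG15, a ubiquitin-like modifier, was at 5.2, 6.0, 6.2, 5.7 and 4.7 in atretic and 6.7, 7.0, 7.1 and 7.8 in large healthy theca. The groups were separate, with large healthy replicate 4 highest, and differed by -1.59 ± 0.32 (SE; adjusted p = 0.138 with 9 arrays and 0.0564 with 19). RSAD2, an antiviral enzyme, was at 2.6 to 3.7 against 4.0 to 5.6 (-1.48), and IFI6 at 7.0 to 7.7 against 7.9 to 8.9 (-1.01). The double-stranded RNA sensor EIF2AK2 (-0.78) passed the adjusted threshold with 19 arrays but not the 2-fold limit (adjusted p = 0.0387). Every atretic array was under the detection limit, so EIF2AK2 passed the filter through the large healthy arrays only and its size is uncertain. MX1 (-1.07) and IFI27 (-1.58) overlapped between the groups.

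The interferon list mean was 4.82, 4.97, 5.00, 4.97 and 4.86 on atretic arrays and 5.28, 5.56, 5.37 and 5.78 on large healthy arrays, without overlap. Of 31 lists, 3 had means that did not overlap between the groups, all higher in large healthy theca. The others were TGF-β, BMP and activin genes, at 5.40 to 5.55 against 5.64 to 5.92, and basal lamina components, at 7.73 to 7.85 against 7.87 to 7.95. Their members were mixed, with medians of -0.08 (9 higher and 14 lower in atretic theca) and -0.07 (6 and 6). Rounded and columnar arrays were at 5.27 to 5.58 and 5.28 to 5.44 for the former list. For the latter they were at 7.73 to 7.92 and 7.54 to 7.92, across both groups. For interferon-stimulated genes, rounded theca at 4.84 ± 0.25 and columnar theca at 4.91 ± 0.31 (SD, n = 5 each) were near the atretic mean of 4.92 ± 0.08 (SD, n = 5). Leaving out any 1 array kept between 11 and 14 genes past the unadjusted threshold. Antigen presentation genes, several of which interferons also induce, had 3 of 15 past the threshold, all lower in atretic theca: PSMB9 (-0.61), TAP1 (-0.45) and BOLA-DMB (-0.44). The count was 1 without large healthy replicate 3.

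**Figure D4:**
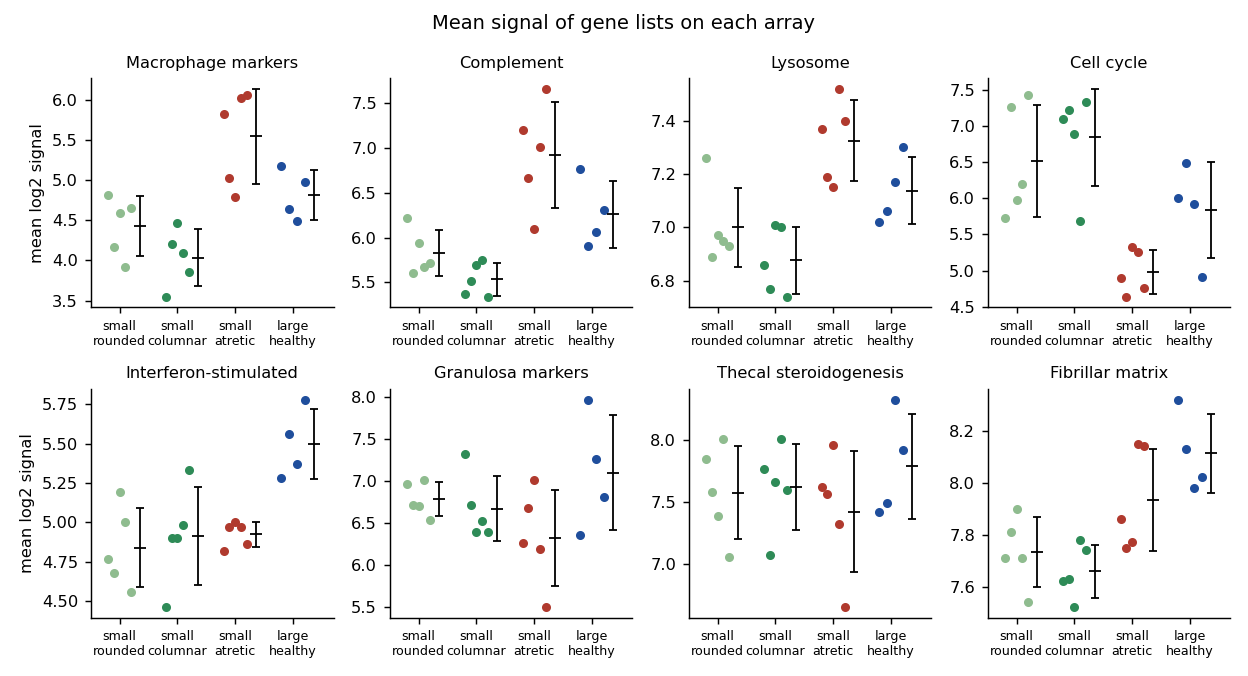
Mean log2 signal of the tested genes of 8 lists (y axes) on each of the 19 arrays by group (x axes); each point is 1 array, and the bars beside the points are the mean and SD of the group. Interferon-stimulated genes separate atretic (4.82 to 5.00) from large healthy arrays (5.28 to 5.78), whereas the other 7 lists shown overlap between these groups.

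Fibroblast and fibrillar matrix genes included 9 of 29 past the unadjusted threshold higher in large healthy and 3 higher in atretic theca, with a median of -0.26. FN1, the adhesive glycoprotein fibronectin, was at 10.0, 10.2, 10.2, 10.5 and 10.6 in atretic and 10.9, 11, 10.9 and 11 in large healthy theca. Its groups were separate but differed by only 0.65 on the log2 scale (-0.65 ± 0.13 SE, adjusted p = 0.138 with 9 arrays and 0.0324 with 19). The collagen genes COL1A1 (-0.64) and COL1A2 (-0.41), the microfibril component MFAP5 (-1.66) and the elastic fibre protein FBLN5 (-0.74) lay on the same side, and THBS2 (0.89), COL6A1 (0.52) and LUM (0.26) on the other. The count higher in atretic theca was 1 without large healthy replicate 3 or 4 or atretic replicate 5, and 5 without large healthy replicate 1.

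Of 23 TGF-β, BMP and activin genes, 4 passed the unadjusted threshold, all higher in large healthy theca: INHBA (-2.51), LTBP1 (-1.67), BMP4 (-1.11) and SMAD5 (-0.56). BMP4, a ligand made by theca cells, was at 3.3, 3.4, 3.9, 3.3 and 3.9 in atretic and 4.6, 5.2, 4.8 and 4.1 in large healthy theca, without overlap (adjusted p = 0.138 with 9 arrays and 0.0505 with 19). In the IGF system, 1 of 11 passed, IGFBP3 (-1.04). Among 18 Wnt pathway genes, the ligand WNT2B (1.02) and the transcription factor LEF1 (1.01) were higher and the receptor FZD4 (-0.39) lower in atretic theca. With the filter at a log2 signal of 4, 2 of 14 were higher and 0 lower. WNT2B was at 5.4 to 6.7 in atretic, 4.6 to 5.6 in large healthy and 6.62 on average in rounded theca. FRZB, a secreted Wnt antagonist, overlapped at 5.1 to 7.6 against 7.2 to 7.7 (-0.96, adjusted p = 0.278).

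Endothelial markers had a median of -0.18 with 2 of 16 past the unadjusted threshold, PECAM1 (-0.73) and ROBO4 (-0.30), both lower in atretic theca, and the count was 7 without atretic replicate 5 and 0 without large healthy replicate 4. Smooth muscle and pericyte markers had a median of -0.25 with 4 of 15 lower, MCAM (-0.88), TPM2 (-0.72), ACTA2 (-0.69) and CSPG4 (-0.51), and the count was 2 without large healthy replicate 3. Angiogenic factors and receptors had the apelin receptor APLNR (-1.12) lower and FGF10 (0.86) and ANGPT1 (0.44) higher in atretic theca among 21 genes. Of the 21, 2 passed the filter through the atretic arrays only. With the filter at a log2 signal of 4, 0 of 18 were higher and 1 was lower. Basal lamina components had 3 of 12 lower, COL18A1 (-0.99), LAMA4 (-0.41) and LAMC1 (-0.28). The last count was 0 without large healthy replicate 2 and 1 without atretic replicate 1.

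Thecal steroidogenic genes did not separate the groups as a list, with a median of -0.30 and 3 of 16 past the threshold lower and 1 higher in atretic theca. CYP17A1, which makes androgens, was at 7.0, 7.2, 8.0, 4.1 and 3.0 in atretic and 7.0, 6.1, 9.2 and 7.5 in large healthy theca. Atretic replicates 4 and 5 were far below all other arrays, and the difference of -1.59 ± 1.05 (SE) had an adjusted p of 0.445. CYP11A1, which cleaves the cholesterol side chain, was at 8.9, 9.3, 10.0, 9.3 and 7.4 against 9.5, 10.3, 10.8 and 10.1 (-1.20 ± 0.47 SE, adjusted p = 0.231). CYP11A1 was called lower in atretic than in rounded theca (-1.20, adjusted p = 0.0404).

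STAR, which brings cholesterol into mitochondria, differed by -0.14 ± 0.75 and HSD3B1, which makes progesterone, by -0.15 ± 0.40 (SE; adjusted p = 0.937 and 0.873). The LH receptor LHCGR differed by -0.73 ± 0.41 and INSL3 by -0.58 ± 0.42 (SE; adjusted p = 0.368 and 0.483). HSD17B11, a 17β-hydroxysteroid dehydrogenase, was the exception higher in atretic theca, at 8.5, 8.1, 8.2, 8.4 and 8.6 against 7.7, 6.9, 7.5 and 7.9, without overlap (0.86, adjusted p = 0.141). The count of lower genes was 1 without large healthy replicate 2 or 3 and 5 without large healthy replicate 1. Cholesterol synthesis and uptake genes had a median of -0.42 with 1 of 18 past the threshold, SREBF2 (-0.52), and the median lay between -0.70 and 0.10 when 1 array was left out.

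Granulosa cell markers had 3 of 9 genes higher in large healthy theca, INHBA, CYP19A1 and NR5A2, and 1 higher in atretic theca, GATM (0.61). INHBA, the βA subunit of activin and inhibin, was at 5.6, 5.7, 7.0, 5.6 and 5.3 in atretic and 6.7, 10.3, 8.6 and 7.8 in large healthy theca (-2.51 ± 0.63 SE, adjusted p = 0.144). CYP19A1, the aromatase of granulosa cells, was at 1.7 to 2.0 in atretic and 1.9, 5.8, 3.7 and 3.3 in large healthy theca. Every atretic value was under the detection limit of 3, and CYP19A1 and NR5A2 passed the filter through the large healthy arrays only, so of the 3 genes INHBA alone was measured in both groups. The activin-binding FST differed by -0.69 (adjusted p = 0.505). The list mean was highest on large healthy replicate 2 (7.97) and lowest on atretic replicate 5 (5.50), and ranged from 6.36 to 7.97 in large healthy and from 5.50 to 7.01 in atretic theca. The study left out 1 large healthy sample with high CYP19A1, FSHR, INHBA and FST, which it considered contaminated by granulosa cells. The sample titles do not say whether that sample is among these arrays. The part of residual granulosa cells in the differences was not tested.

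Nuclear-encoded oxidative phosphorylation genes had lower means for 45 of 50 genes, by a median of 0.19 on the log2 scale (-0.19), and 13 passed the unadjusted threshold, led by the ATP synthase subunit ATP5F1B (-0.52). This count was 21 without large healthy replicate 1 and 20 without atretic replicate 3, and between 5 and 7 without large healthy replicate 2 or 3 or atretic replicate 1 or 5. Glycolytic enzymes and glucose transporters had 4 of 21 lower, with SLC16A1 (-0.69) and PFKP (-0.42) first, and 2 higher, PDK4 (1.10) and PFKFB3 (0.79), which restrain glucose oxidation and raise glycolytic flux. The lower count was 8 without atretic replicate 4 and 0 without large healthy replicate 2.

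Heat shock proteins and chaperones had 6 of 26 past the threshold, all lower in atretic theca, among them HSP90B1 (-0.57) and HSPA8 (-0.52), which did not overlap. Antioxidant enzymes had 3 of 30 in each direction, with the haem oxygenase HMOX1 (0.71), SOD2 (0.58) and SELENOP (0.56) higher and PRDX1 (-0.45), PRDX4 (-0.31) and TXNRD1 (-0.20) lower in atretic theca. Each share was near that over all genes, and the lower count was 1 without large healthy replicate 2 or atretic replicate 1 or 2. Apoptosis genes had 3 of 19, FAS (1.07), PDCD4 (0.48) and TRADD (0.34), all higher in atretic theca, with a list median of 0.04. The apoptosis count was 5 without large healthy replicate 1 and 1 without large healthy replicate 3.

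In the remaining lists few genes passed the unadjusted threshold. Immediate early and gonadotropin-induced regulators had 2 of 21 higher in atretic theca, JUNB (0.80) and the stress-induced GADD45A (0.77), and 9 without large healthy replicate 1. Matrix proteases and inhibitors had A2M (1.29) and MMP19 (1.41) higher and PLAU (-0.62) lower among 16 genes. Hormone receptors had INSR (1.10) and THRA (0.36) higher and RARA (-0.27) lower among 5. Vasoactive and contractile signaling genes had EDNRA (0.41) higher and AGTR2 (-0.28) lower among 14. For these, a filter at a log2 signal of 4 left 8 genes, 1 higher and 0 lower.

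Junction genes had 3 of 22 lower in atretic theca, EPCAM (-0.80), JUP (-0.70) and DSC2 (-0.51). Surface and glandular epithelium markers had 2 of 6, EPCAM and KRT19 (-0.60), both near the detection limit. The erythroid marker HBM, the 1 tested of its list, differed by -0.01. CLDN11, a tight junction protein, was at 8.5, 3.8, 7.3, 8.0 and 8.3 in atretic and 8.5, 7.3, 8.0 and 8.3 in large healthy theca, so that all but atretic replicate 2 lay together (-0.84, adjusted p = 0.624).

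What the groups had in common was read in 2 ways. For 88.6% of the 15326 probe sets, a difference of 2-fold either way lay outside the 95% confidence interval, whose half-width had a median of 0.302 on the log2 scale. These intervals were taken for each probe set without adjustment, and the median SD was 0.192 within atretic and 0.206 within large healthy theca. No other pair of groups was read in this way, so the share cannot show that these groups were especially alike. Then departures from small healthy theca were tested in a fit of all 19 arrays, with 15722 probe sets. Atretic theca was set against rounded theca and large healthy theca against columnar theca, so that no array served in both mean differences. The spread was estimated from all 19 arrays for both, so the calls are not independent. In atretic against rounded theca, 159 probe sets were called higher (1.01%) and 156 lower (0.992%). In large healthy against columnar theca, 115 were called higher (0.731%) and 6 lower (0.0382%).

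Both calls coincided for 16 probe sets, all higher in both, which were 10.1% of those higher in atretic and 13.9% of those higher in large healthy theca. None was lower in both, and none was called in opposite directions. The named genes were the scavenger receptor MSR1, the NADPH oxidase subunit CYBB, the lysosomal leukocyte protein LAPTM5, the interleukin-10 receptor subunit IL10RA, the prostaglandin receptor PTGER4, the receptor tyrosine kinase NTRK2, the peroxidase GPX3, the calcium pump regulator PLN and RTP4.

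MSR1 was at 5.6, 4.9, 4.7, 6.2 and 5.7 in atretic, at 5.0, 4.1, 4.7 and 5.3 in large healthy and at 2.6 to 4.4 in small healthy theca. The atretic arrays all exceeded the small healthy ones, and 1 large healthy array fell among them. MSR1 was higher by 1.46 in atretic than in rounded and by 1.38 in large healthy than in columnar theca (adjusted p = 0.0208 and 0.0319), whereas atretic and large healthy theca differed by 0.65 (adjusted p = 0.336). MSR1, CYBB and LAPTM5 are also in the macrophage list.

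RTP4, an interferon-inducible chaperone of membrane receptors, was at 5.1, 5.0, 4.2, 4.9 and 4.9 in atretic, at 4.4, 4.8, 5.0 and 5.3 in large healthy and at 3.1 to 4.1 in small healthy theca, without overlap with the small healthy arrays. It was higher by 1.12 and 1.31 (adjusted p = 0.0184 and 0.00695). It was the 1 probe set of the 16 still called when the small healthy references were exchanged, which gave 3 calls in all.

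NTRK2 was at 5.3, 4.9, 3.5, 3.7 and 4.8 in atretic, at 5.4, 3.6, 4.5 and 5.0 in large healthy and at 1.8 to 4.0 in small healthy theca. PLN was at 4.3 to 5.1, 4.4 to 4.9 and 2.8 to 4.2 in the same order. For both, atretic and large healthy theca covered nearly the same range. GPX3 departed by 1.22 in atretic and 1.60 in large healthy theca, LAPTM5 by 1.06 and 1.09, IL10RA by 1.02 and 1.01, PTGER4 by 1.12 and 1.31 and CYBB by 1.0 and 1.15.

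The 16 shared calls depended on single arrays. Without atretic replicate 1, atretic replicate 5 or rounded replicate 2 there were 0, since atretic against rounded theca then gave 0 calls. There was 1 without rounded replicate 5 and there were 4 to 6 without columnar replicate 1 or 2 or large healthy replicate 3 or 4. Counts of 9 or 10 came without rounded replicate 4, atretic replicate 4 or columnar replicate 5, and 24 or 25 without atretic replicate 2, large healthy replicate 2 or columnar replicate 4. Without rounded replicate 1 there were 32. Probe sets lower in both numbered 98 without columnar replicate 4. According to the labels, RNA kit and amount also differed between atretic and rounded theca, and RNA extraction between large healthy and columnar theca, and cannot be told apart from follicle state or size there. The poly-A controls were close in the former pair (4.88 and 4.75) and apart in the latter (6.02 and 4.61), and their part in the shared calls was not tested.

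**Figure D5:**
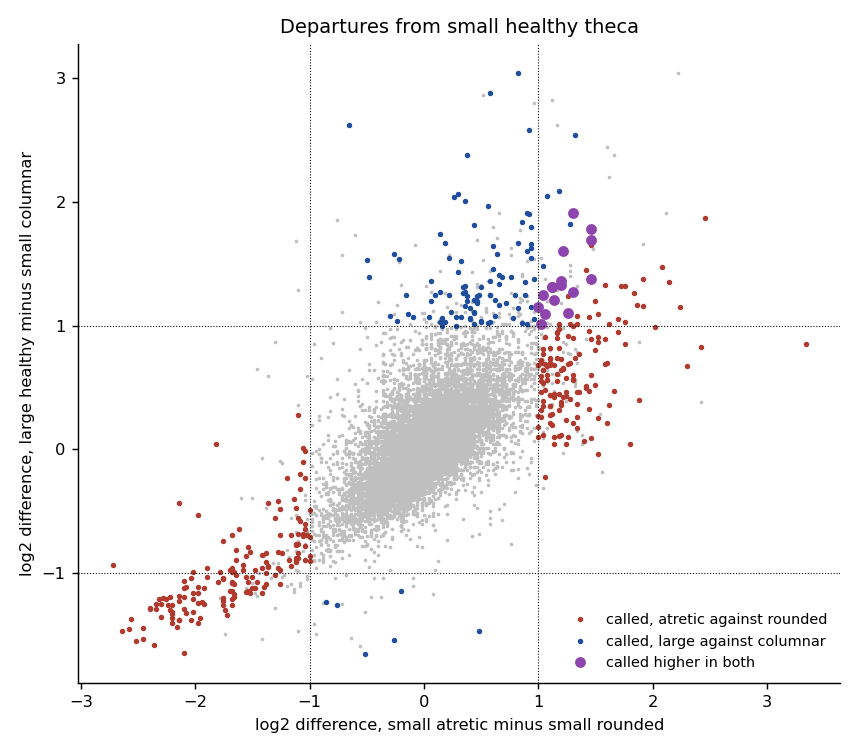
Log2 difference of small atretic minus small rounded theca (x axis) against that of large healthy minus small columnar theca (y axis) for the 15722 tested probe sets, 1 point each; the axes share no array. Coloured points were called on 1 axis, the 16 purple points were called higher on both, and dotted lines mark a 2-fold difference.

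Gene lists set beside these departures showed where the groups moved from small healthy theca. Macrophage markers had a median of 1.06 in atretic against rounded theca with 10 of 19 genes called higher, and 0.73 in large healthy against columnar theca with 3 called higher. Complement genes had medians of 1.13 with 9 called and 0.76 with 0 called. Cell cycle genes had medians of -1.53 with 23 called and -1.11 with 0 called. For interferon-stimulated genes the medians were 0.02 with 1 called and 0.58 with 2 called. Without atretic replicate 1 or 5 or rounded replicate 2, no gene of these lists was called in atretic against rounded theca. The macrophage count there was 2 without rounded replicate 5, 4 without rounded replicate 4 and 6 without atretic replicate 4, and the complement count 0 and 5 without rounded replicates 5 and 4. The 3 macrophage calls in large healthy theca were 1 without large healthy replicate 3 or 4 or columnar replicate 1, 2 or 5. Whether any of these departures differed in size between the groups was not tested beyond the direct contrast above.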

How the data were processed

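Theca interna RNA was measured on 19 Affymetrix bovine arrays. The authors summarised the scans with RMA and quantile normalization (Partek 6.5), and the deposited log2 signals are rounded to 1 decimal. Joint normalization of the 19 arrays is neither stated nor denied in the labels and methods. The depth is not counted on arrays, so their number limits the precision. Of 24127 probe sets, 111 are controls, 13317 have 1 gene symbol, 86 several and 10724 none in the platform annotation.

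Deposited log2 values were analysed in limma 3.58.1 (R 4.3.3), with moderated statistics from eBayes and Benjamini-Hochberg adjustment. Calls needed at least a 2-fold difference with an adjusted p under 0.05. The main comparison used the 9 atretic and large healthy arrays. A fit of 19 arrays gave the departures from small healthy theca and an alternative for the direct contrast. Control measures were tested by exact two-sided permutation (126 splits). Scripts were tested on simulated data. The alternatives were another filter, no filter, median centring, array weights, an intensity trend, an ordinary linear model, the replicate number as a block and leaving out each array. Counts at the unadjusted threshold and counts of calls per departure and per list were added after the data were seen.

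The gene lists and the comparison were chosen with earlier results of these data known. Named genes were up to 15 called genes in each direction (none was called), 2 to 4 genes of each list by smallest p, 10 thecal and granulosa identity genes and 8 shared departures; other named genes were chosen after their values were seen. Probe set names and symbols are those of the platform annotation, and probe sequences were not used here. Deviations of same-numbered atretic and large healthy samples from their group means correlated at 0.0260, -0.0206, 0.3087 and -0.2231. The main fit used no pairing, but such correlations cannot show whether any samples came from the same animal.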

Additional observations from a re-analysis of the deposited data

Results flagged for a closer look

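In 376 checks of the values of 1 group, 21 had an array that stood apart from the rest of its group, and chance alone gives about 1 in 20. Atretic replicate 3 was highest for FSHR (2.9, others 1.4 to 1.6), INHBA (7.0, others 5.3 to 5.7) and SREBF2 (6.1, others 5.2 to 5.4) and lowest for RTP4 (4.2, others 4.9 to 5.1) and the second GPNMB probe set (2.3, others 4.6 to 5.5). Atretic replicate 1 was lowest for CAV1 (2.5) and for the mean of angiogenic factors and receptors (5.90). Atretic replicate 2 was lowest for CLDN11 (3.8, others 7.3 to 8.5), and atretic replicate 5 was lowest for INSL3 (10.0, others 11.8 to 12.4).

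Large healthy replicate 2 was highest for CAV1 (5.3), CD55 (7.0), COL18A1 (5.2) and the mean of basal lamina components (7.95), and lowest for THRA (5.9) and NPC2 (8.4). Large healthy replicate 1 was highest for EDNRA (7.0) and the mean of Wnt pathway genes (5.96), and lowest for TRIB2 (5.2, others 7.1 to 7.4), DSC2 (5.5) and a probe set without a symbol (2.0). Large healthy replicate 3 was highest for the mean of cholesterol synthesis and uptake genes (7.51, others 5.66 to 5.96).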

How the results depend on the processing

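The count of calls in the direct contrast was 0 in both directions under every alternative but the fit of all 19 arrays (22 higher in atretic, 21 higher in large healthy theca) and the omission of single arrays (0 to 10 and 0 to 50). Unadjusted 2-fold differences ranged from 59 to 155 and from 86 to 212 with 1 array left out. Shared calls higher in both were 40 with array weights, 7 with an ordinary linear model, 3 with the references exchanged and 0 to 32 with 1 array left out. Those lower in both were 106 with array weights, 1 after centring, 2 without the filter and 0 to 98 with 1 array left out. Calls of large healthy against columnar theca were 443 with array weights, 79 with an ordinary linear model and 31 to 304 with 1 array left out, and those of atretic against rounded theca 0 to 544. The causes were not tested.

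With the replicate number as a block, shared calls were 7. The direct contrast, from which the block also drops atretic replicate 5, kept 0 calls in both directions. In the direct contrast, HSD3B1 (0.15), PTGER4 (-0.05) and STAR (0.17) turned sign. With 1 array left out, the difference crossed 0 for HBM (-0.05 to 0.03), HSD3B1 (-0.40 to 0.15), NTRK2 (-0.53 to 0.07), PLN (-0.17 to 0.03), PTGER4 (-0.05 to 0.47), RTP4 (-0.21 to 0.10), STAR (-0.61 to 0.59), the hybridization controls (-0.07 to 0.07) and the 3′ minus 5′ signal (-0.11 to 0.05). The poly-A difference stayed between -1.24 and -1.0. Signals near the detection limit of 3 limit the low genes.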

Other observations

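Further genes stood among the largest differences, each chosen after its values were seen. Higher in atretic theca were the carbonic anhydrase CA4, at 6.4, 6.0, 5.9, 6.7 and 6.2 against 5.8, 3.6, 4.2 and 5.3 in large healthy theca (1.51, adjusted p = 0.148 with 9 arrays), and EED, a Polycomb protein (1.57, adjusted p = 0.164). LOC515676 (1.82), LOC508098 (1.75) and LOC504773 (1.52) lay on the same side. CA4 did not overlap between the groups.

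Higher in large healthy theca were RARRES1, a retinoid-responsive gene, at 7.9, 6.0, 9.0, 8.4 and 8.5 in atretic against 8.8, 10.0, 9.5 and 9.9 in large healthy theca (-1.59, adjusted p = 0.191), and the pseudokinase TRIB2 (-1.82, adjusted p = 0.191). Both overlapped between the groups. The mitotic genes CDCA8 (-1.64) and PIMREG (-1.58), which were in no list, lay on the same side as the listed cell cycle genes, PIMREG with 1 of 5 atretic arrays over the detection limit.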
